A study of Drosophila melanogaster with 12 samples.

Results

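The transcripts described here were those whose level in S2R+ cells was higher at 25 °C than both at 30 °C and at 11 °C. The temperature in between, 14 °C, took no part in the choice, and 12 of the 193 probes had a higher mean there than at 25 °C. A probe was chosen when it was well above background on all 3 arrays at 25 °C and when its mean at 25 °C lay at least 0.8 on the log2 scale above the mean at 30 °C and at least 0.8 above the mean at 11 °C. Of 31676 gene probes in the deposited table, 16552 were well above background on all arrays at 25 °C, and 193 of these (1.17%) met the rule. They carried 178 of the 26193 transcript identifiers of the array. Of the 193 probes, 118 matched 102 genes of the RefSeq annotation and 75 kept the identifier of the array design, mostly clusters of expressed sequence tags.

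S2R+ is an established, macrophage-like line of cells derived from Drosophila melanogaster embryos. Aliquots spent 24 h at 11, 14, 25 or 30 °C, and total RNA of 3 biological replicates per temperature, labelled with Cy3, was hybridised to 12 single-colour Agilent arrays. All groups were the same untreated line in the same medium, and 25 °C is the usual temperature of its culture. Dishes received 4500000, 3500000, 1700000 and 1500000 cells for 11, 14, 25 and 30 °C, so the number of plated cells and the temperature cannot be told apart.

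Flies and their cells are ectotherms, whose body temperature follows that of the surroundings. Cooling slows all enzymatic steps, although not to the same extent, and mild warming speeds them until proteins begin to unfold. The level of a transcript reflects both its synthesis and its decay, and an array measures only the resulting amount relative to all other RNA.

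On each array 43603 gene spots were read, of which between 53.9% and 61.1% were well above background and 0 were saturated. The median signal of an array ranged from 35.8 to 60.1 intensity units. Replicate 1 of all 4 temperatures shared a slide. Replicates 2 and 3 at 11 and 14 °C shared another, and replicates 2 and 3 at 25 and 30 °C shared the remaining one. Either of 11 and 14 °C can thus be compared with 25 or 30 °C within a slide only for replicate 1. The limma fit below held no term for the slide. Of 14 hemocyte markers, 10 were well above background on all 12 arrays, among them the GATA factor srp, and 4 of 6 fat body markers were above background on none. Levels below are log2 values of the deposited table, given as replicates 1, 2 and 3. Log2 changes with a standard error (SE) and an adjusted p come from a limma fit across 19763 probes. A call needed a 2-fold change or more, with a p under 0.01 after Benjamini-Hochberg adjustment. The rule required low arrays at 11 and 30 °C, which favours a higher level at 14 °C. The p of a chosen probe for 14 against 11 or 30 °C is thus no independent evidence.

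The differences that chose the probes are a description and were not tested. The difference between 25 and 30 °C had a median of 1.26 over the 193 probes and ran from 0.80 to 3.68. The difference between 25 and 11 °C had a median of 1.29 and ran from 0.80 to 3.91. The smaller of both was mostly close to the limit of the rule, with a median of 1.02 and a highest value of 2.49. All 3 arrays at 25 °C lay above all 6 arrays at 11 and 30 °C for 156 of 193 probes, against 8.49% of all probes detected at 25 °C, which follows from the rule. In the same sense, the limma fit called 107 of 193 lower at 11 than at 25 °C, where 11.5% of all tested probes were called, and 86 lower at 30 than at 25 °C, where 3.35% were. The fit called 1 probe higher at 30 than at 25 °C (background 4.1%), NM_001015341, whose replicate 3 at 25 °C it left out, and 0 higher at 11 than at 25 °C (background 8.37%).

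**Figure D1:**
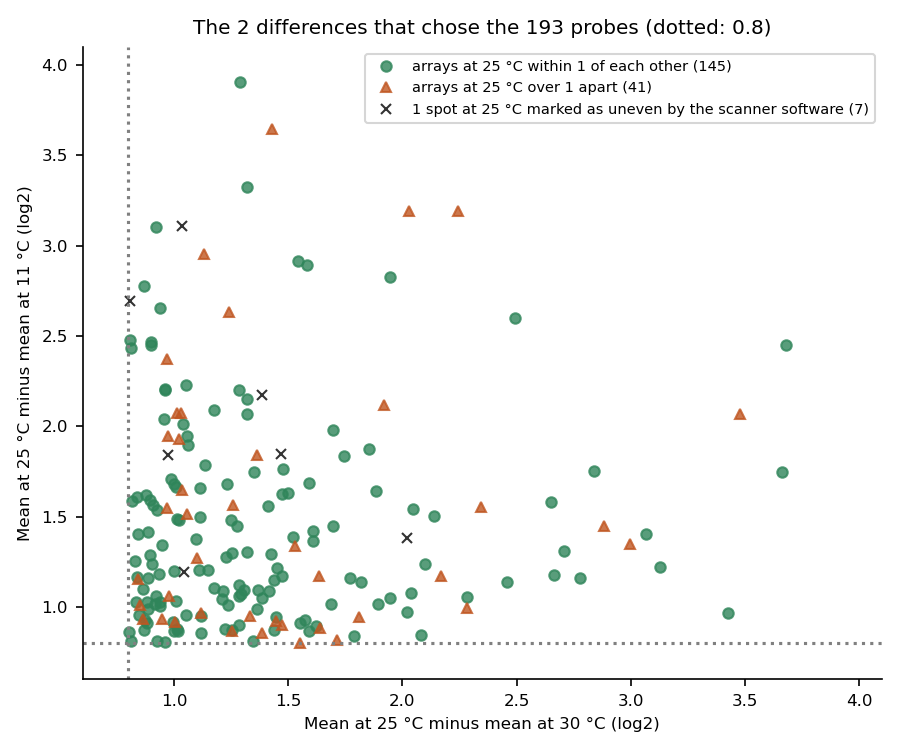
Each point is a probe, with its mean log2 level at 25 °C minus that at 30 °C on one axis and minus that at 11 °C on the other, and the dotted lines mark the limit of 0.8. Colours separate the 145 probes whose 3 arrays at 25 °C lay within 1 of each other from the 48 whose arrays lay farther apart. Most points sit close to 1 of the limits, with medians of 1.26 and 1.29.

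The chosen transcripts were dim. Their mean at 25 °C had a median of 7.27, against 10.17 for all probes detected at 25 °C, and 162 of 193 lay under the latter. At 25 °C, 56 had a mean under 6 and 15 a mean over 12. Of the 193 probes, 127 were well above background on all 12 arrays, 15 on no array at 11 °C, 10 on no array at 30 °C and 4 on no array at 14 °C. Their number also moved with the way arrays were scaled to each other. It was 120 with scaling on the 75th percentile of the signal and 76 with scaling on spike-in controls. Scaling on the median placed the median of all tested probes at -0.21 for 11 against 25 °C and at -0.09 for 30 against 25 °C, while the 75th percentile placed them at 0.03 and -0.01.

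Small non-coding RNAs that serve the making, modification and sorting of other RNAs and proteins were among the chosen transcripts. Some of them were among the brightest and most even. The arrays read labelled copies of the RNA, and whether small RNAs were copied in proportion to their amount was not tested. Box H/ACA small nucleolar RNAs guide the conversion of uridine to pseudouridine in ribosomal RNA. The probe for snoRNA:Psi28S-291 (NR_002496), a guide of this kind for 28S ribosomal RNA, read 8.88, 8.96 and 8.24 at 11 °C, 9.58, 9.50 and 9.56 at 14 °C, 11.26, 11.63 and 11.67 at 25 °C, with 9.59, 9.40 and 9.74 at 30 °C. The 3 arrays at 25 °C stood above the other 9, and those at 14 and 30 °C overlapped. Its levels at 25 °C were 3.85-fold those at 30 °C and 7.09-fold those at 11 °C, the largest smaller difference (1.95) of all the chosen probes that were well above background on every array. Between the temperatures that the rule left unordered, it was lower at 11 than at 30 °C by a log2 change of -0.88 ± 0.19 (SE, limma adjusted p = 0.00243), which is less than a fold of 2.

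U2 small nuclear RNA pairs with the branch site of introns in the spliceosome. The probe for 1 of its gene copies, snRNA:U2:34ABb (NR_001646), read 12.09, 11.89 and 12.03 at 11 °C, 12.77, 12.26 and 12.45 at 14 °C, 13.66, 13.70 and 13.72 at 25 °C, with 12.21, 11.86 and 12.23 at 30 °C. Again the arrays at 25 °C stood alone at the top, between 13.66 and 13.72, and those at 11 and 30 °C overlapped. U2 copies are nearly identical, so a probe for 1 copy may read the others.

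The RNA of the signal recognition particle, 7SLRNA:CR32864 (NR_001992), which brings ribosomes with secretory proteins to the endoplasmic reticulum, read 13.35, 13.30 and 13.07 at 11 °C, 13.74, 13.38 and 13.43 at 14 °C, 14.59, 14.41 and 14.43 at 25 °C, with 13.17, 12.91 and 11.05 at 30 °C. Replicate 3 at 30 °C was far below its companions, and without it the difference between 25 and 30 °C was 1.44 in place of 2.10. The RNA of RNase MRP (NR_002501), a ribonucleoprotein enzyme that cuts precursor ribosomal RNA, read 12.25, 11.95 and 11.55 at 11 °C, 12.58, 12.39 and 12.30 at 14 °C, 13.43, 13.38 and 13.39 at 25 °C, with 12.34, 12.42 and 12.39 at 30 °C. Here the arrays at 14 and 30 °C overlapped and the difference between 25 °C and either was close to 1. The small Cajal body RNA scaRNA:MeU5-C46 (NR_001999), named for methylation of the U5 small nuclear RNA, read 8.65, 7.80 and 8.41 at 11 °C, 8.73, 8.29 and 8.29 at 14 °C, 9.09, 9.65 and 9.59 at 25 °C, with 8.02, 7.56 and 7.44 at 30 °C. Its arrays at 11 and 14 °C overlapped, and 25 °C was above all others. Its mean at 25 °C was 9.44 ± 0.30 (SD, n = 3), under the median of 10.17 over all probes detected there.

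These 5 were all the chosen probes among 12 probes for snRNAs, snoRNAs, the signal recognition particle RNA and the RNase MRP RNA that were detected at 25 °C, while 113 of 11653 probes for protein-coding genes (0.97%) were chosen. Of the 12, both differences were above 0 for 4 of 5 snRNA and 3 of 5 snoRNA probes and for the remaining pair. Other classes held none, with 0 of 30 probes for long non-coding RNAs, 0 of 34 for pseudogenes and 0 of 4 for RNAs annotated only as non-coding. Of those 4, 0 had both differences above 0.

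**Figure D2:**
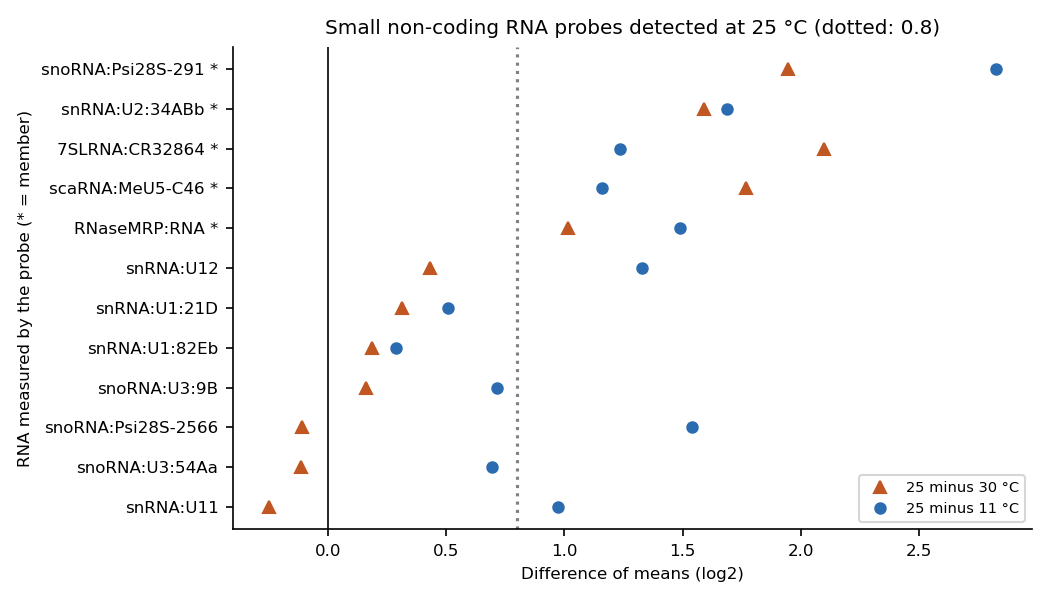
Difference of mean log2 levels between 25 and 30 °C (triangles) and between 25 and 11 °C (circles). Shown are the 12 probes for snRNAs, snoRNAs, the signal recognition particle RNA and the RNase MRP RNA that were detected at 25 °C. An asterisk marks the 5 chosen ones and a dotted line the limit of 0.8. Both symbols lie right of the line only for those 5, from snoRNA:Psi28S-291 at 1.95 and 2.83 to RNase MRP RNA at 1.01 and 1.49.

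Probes for some proteins of RNA processing, named after their values were seen, were chosen as well. Their share among all such proteins was not counted. The probe for Rpp30 was not chosen, at 0.43 above 30 °C and 0.80 above 11 °C. Rpp14b (CG15526-RA), a subunit of RNase P and MRP, read 5.02, 5.58 and 5.67 at 11 °C, 6.49, 6.79 and 6.59 at 14 °C, 6.24, 7.05 and 6.85 at 25 °C, with 5.41, 5.16 and 5.30 at 30 °C, so that 14 and 25 °C overlapped and both stood above the rest. It was higher at 14 than at 11 °C by 1.20 ± 0.22 (SE, limma adjusted p = 0.0077). For the splicing factor B52, an SR protein, both probes for the transcript CG10851-RD were chosen, with smaller differences of 0.95 and 0.90, whereas the 5 other probes had smaller differences from -0.15 to 0.33.

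Several enzymes were among the clearest cases. CG8349, a predicted cytidine deaminase, read 9.28, 9.58 and 9.67 at 11 °C, 10.02, 10.13 and 10.32 at 14 °C, 12.11, 12.57 and 12.53 at 25 °C, with 10.85, 10.77 and 10.85 at 30 °C. Its 4 groups did not overlap and followed the order 11, 14, 30 and 25 °C. It was called lower at 11 than at 30 °C, with a log2 change of -1.31 ± 0.16 (SE, limma adjusted p = 3.1e-05). Its second probe was chosen too, with differences of 1.54 and 2.92.

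CG8349 lies beside CG8353 and CG8360 on chromosome arm 2L, 3 consecutive genes of the RefSeq table that encode cytidine deaminases. CG8353 fell just short of the rule, at 1.15 above 30 °C and 0.80 above 11 °C. CG8360 was 0.67 above 30 °C and 1.22 above 11 °C, with arrays at 25 °C of 12.92, 12.92 and 12.84. Each of the 3 genes thus had its highest mean at 25 °C. No 2 chosen genes were direct neighbours in that table.

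Rpt3R (CG9475-RA) encodes a relative of Rpt3, an ATPase of the base of the 26S proteasome. It read 6.88, 6.86 and 7.51 at 11 °C, 8.65, 9.15 and 8.59 at 14 °C, 8.87, 8.62 and 8.68 at 25 °C, with 6.99, 6.64 and 6.89 at 30 °C. The arrays at 14 and 25 °C overlapped and all lay above those at 11 and 30 °C, which overlapped with each other. Expression was higher at 14 than at 11 °C by 1.71 ± 0.21 (SE, limma adjusted p = 0.00108) and than at 30 °C by 1.96 ± 0.21 (adjusted p = 1.81e-05). The 2 detected probes of Rpt3 itself had smaller differences of 0.24 and 0.54.

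A pair of lysosomal enzymes, named after their values were seen, was chosen with 2 probes each. Ids (CG12014-RA), the sulfatase that removes sulfate from iduronic acid during the breakdown of glycosaminoglycans, read 10.78, 11.39 and 11.74 at 11 °C, 12.58, 12.50 and 12.61 at 14 °C, 12.25, 12.41 and 12.39 at 25 °C, with 10.45, 10.31 and 10.46 at 30 °C. Levels at 14 °C exceeded those at 25 °C on all arrays, and both exceeded the rest. Ids rose by 1.26 ± 0.20 from 11 to 14 °C (SE, limma adjusted p = 0.00351), and its second chosen probe by 1.27 ± 0.20. CG7997, an alpha-galactosidase, read 7.55, 7.48 and 7.28 at 11 °C, 8.79, 8.50 and 8.46 at 14 °C, 8.67, 8.55 and 8.61 at 25 °C, with 7.39, 7.16 and 6.86 at 30 °C, and its second chosen probe differed likewise by 1.36 and 0.99.

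Argk2, of the arginine kinase family, whose members buffer ATP, read 10.23, 10.34 and 11.00 at 11 °C, 11.34, 11.54 and 11.29 at 14 °C, 11.59, 11.67 and 11.58 at 25 °C, with 10.39, 10.05 and 10.16 at 30 °C. The main arginine kinase gene Argk1 had no chosen probe, and its brightest probe had a smaller difference of 0.11. MsrA, a reductase that repairs oxidised methionine, had 2 probes chosen, of which the first read 8.16, 8.21 and 8.36 at 11 °C, 8.41, 8.58 and 8.37 at 14 °C, 9.94, 9.86 and 9.70 at 25 °C, with 9.03, 8.94 and 8.85 at 30 °C, with 11 and 14 °C next to each other at the bottom. Coq4, which is needed for the synthesis of coenzyme Q, was the evenest of the probes at the limit of the rule, with differences of 0.80 and 0.86.

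Naa40, an N-terminal acetyltransferase known from yeast and human cells to act on histones H4 and H2A, read 10.44, 10.84 and 10.90 at 11 °C, 11.75, 11.87 and 11.76 at 14 °C, 13.42, 13.08 and 12.98 at 25 °C, with 12.62, 12.29 and 12.13 at 30 °C. None of the 4 groups overlapped. Its level was lower at 11 than at 30 °C by a log2 change of -1.62 ± 0.17 (SE, limma adjusted p = 1.48e-05), and the second probe gave -1.67 ± 0.16. CG9263 read 7.88, 8.30 and 8.68 at 11 °C, 9.16, 9.34 and 9.43 at 14 °C, 9.84, 9.97 and 9.92 at 25 °C, with 8.44, 8.32 and 8.56 at 30 °C, with 11 and 30 °C overlapping.

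**Figure D3:**
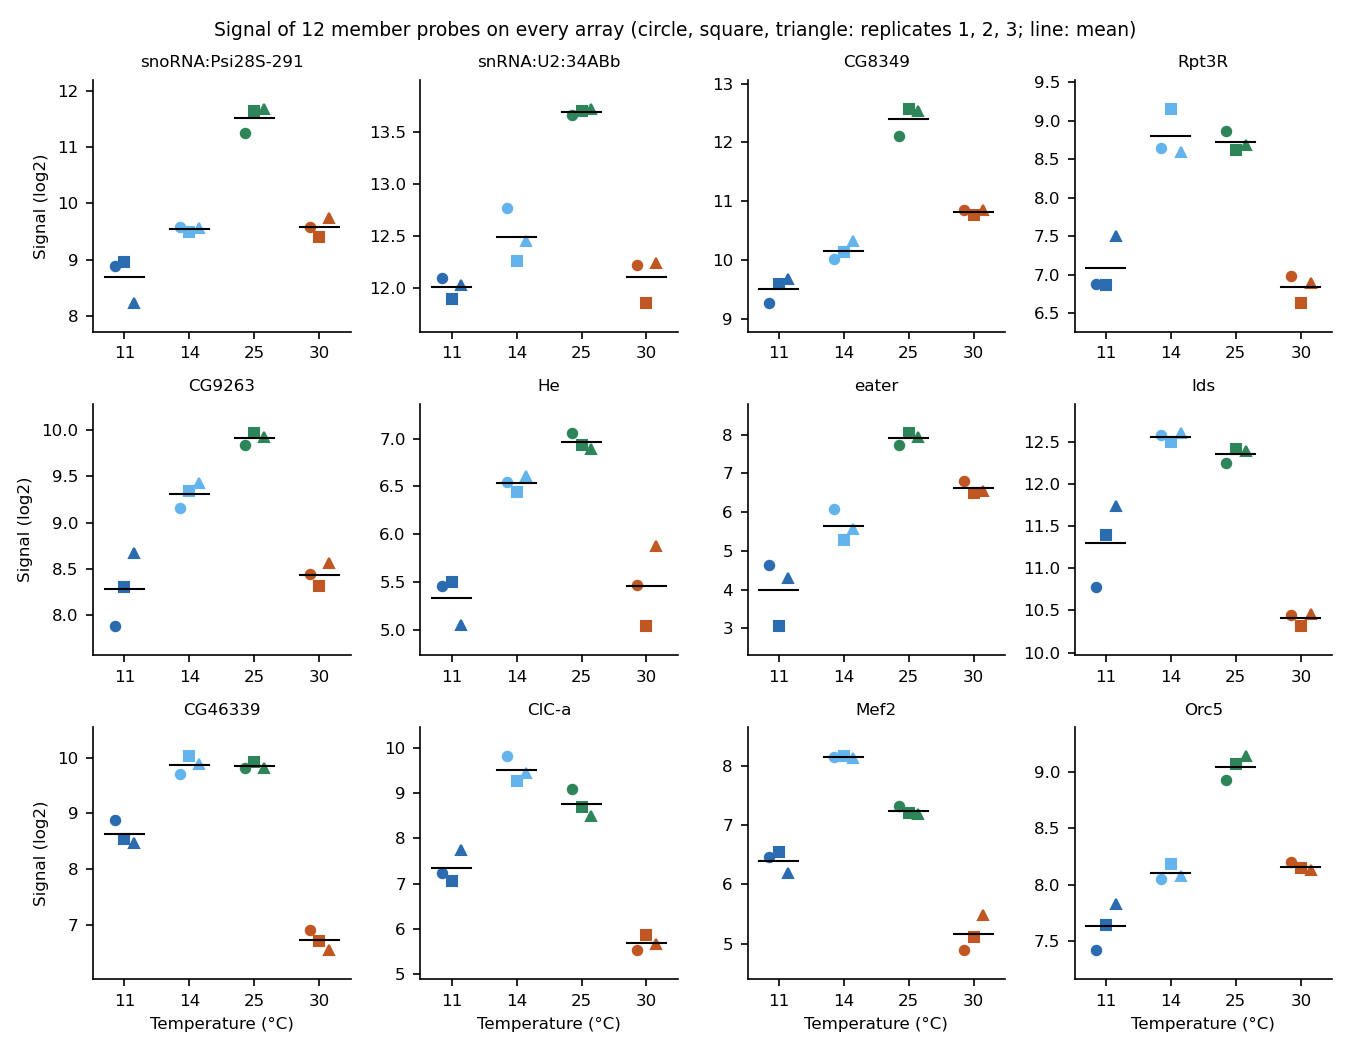
Log2 level on each of the 12 arrays for 12 chosen transcripts, 1 panel each, by temperature, with circles, squares and triangles for replicates 1, 2 and 3 and a line at the mean. CG8349 stands alone at 25 °C, Rpt3R and Ids share a plateau at 14 and 25 °C, and ClC-a and Mef2 are highest at 14 °C, where Mef2 reads 8.15, 8.16 and 8.13.

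A pair of surface proteins of hemocytes, the blood cells that S2R+ cells resemble, was chosen. Eater is a receptor with which macrophages bind and engulf bacteria. It read 4.65, 3.05 and 4.31 at 11 °C, 6.08, 5.27 and 5.57 at 14 °C, 7.75, 8.05 and 7.93 at 25 °C, with 6.80, 6.51 and 6.55 at 30 °C. The 4 groups did not overlap, and at 11 °C it was well above background on 1 of 3 arrays. The measured difference between 25 and 11 °C was 3.91 and rests in part on signals near background. It was called lower at 11 than at 30 °C, at -2.62 ± 0.35 (SE, limma adjusted p = 7.03e-05).

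Hemese (He, CG31770-RB), a transmembrane protein of hemocytes, read 5.46, 5.50 and 5.04 at 11 °C, 6.55, 6.45 and 6.61 at 14 °C, 7.06, 6.93 and 6.89 at 25 °C, with 5.47, 5.04 and 5.88 at 30 °C. Arrays at 14 and 25 °C lay above all others, and 11 and 30 °C overlapped. He was higher at 14 than at 11 °C by 1.20 ± 0.20 (SE, limma adjusted p = 0.00447) and than at 30 °C by 1.08 ± 0.20 (adjusted p = 0.000972).

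None of the remaining hemocyte markers met the rule. The brightest probes of srp and crq also had their highest mean at 25 °C, with smaller differences of 0.36 and 0.11, while others went the opposite way. Of the 14 in the list, 11 were detected at 25 °C, with 18 probes whose median smaller difference was -0.72, and the list's summed signal ranged from 55095 to 69026 at 25 °C, from 65582 to 75614 at 30 °C and from 46692 to 60652 at 11 °C. Hemolectin (Hml) had a mean of 4.26 ± 0.39 at 25 °C and 6.94 ± 0.05 at 30 °C (SD, n = 3), and the collagen gene vkg 10.06 ± 0.25 and 12.64 ± 0.04. Of the 3 crystal cell markers, lz was well above background on no array, PPO1 on 5 and PPO2 on all 12, with PPO2 means of 9.22, 8.83, 8.29 and 9.21 at 11, 14, 25 and 30 °C. The part of cell makeup in the levels of eater and He was not tested. Fewer cells of a type and less RNA per cell cannot be told apart in such bulk RNA.

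Of the lists for cell division, DNA replication had 1 chosen probe of 54 detected and mitosis 0 of 35, beside 1.17% of all detected probes. Orc5, a subunit of the origin recognition complex that marks the start sites of DNA replication, read 7.42, 7.64 and 7.83 at 11 °C, 8.05, 8.18 and 8.07 at 14 °C, 8.93, 9.07 and 9.14 at 25 °C, with 8.20, 8.15 and 8.13 at 30 °C. The arrays at 25 °C stood alone, with those at 14 and 30 °C overlapping. A different probe for the same transcript was not chosen, since it read 9.46, 9.41 and 9.34 at 25 °C, with 9.43, 9.52 and 9.49 at 30 °C. Of the 55 tested probes in a list of DNA replication genes, 48 were called lower at 11 than at 25 °C and 0 lower at 30 °C. The list of mitotic genes gave 26 of 35 and 0. Of all tested probes, 11.5% were called lower at 11 than at 25 °C and 3.35% lower at 30 than at 25 °C.

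Near this group, mei-38, a microtubule-binding protein of the spindle, read 9.09, 9.50 and 9.77 at 11 °C, 10.08, 10.29 and 10.06 at 14 °C, 11.54, 11.27 and 11.24 at 25 °C, with 10.50, 10.22 and 10.15 at 30 °C. Its other detected probe was 0.11 above 30 °C and 1.86 above 11 °C. The kinetochore protein gene Kmn1 read 8.07, 8.33 and 9.02 at 11 °C, 9.05, 9.03 and 8.93 at 14 °C, 9.40, 9.58 and 9.64 at 25 °C, with 8.67, 8.29 and 7.78 at 30 °C, where 11 and 30 °C overlapped. mud, which orients the spindle, read 7.77, 7.49 and 8.46 at 11 °C, 9.34, 9.71 and 9.62 at 14 °C, 10.23, 9.85 and 9.91 at 25 °C, with 8.88, 8.81 and 8.78 at 30 °C, and this probe rose by 1.65 ± 0.22 from 11 to 14 °C (SE, limma adjusted p = 0.00171). The 3 other detected probes of mud had smaller differences of 0.12, -0.13 and -0.28, and the brightest had means of 11.38, 11.68, 11.56 and 11.43 at 11, 14, 25 and 30 °C.

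Of 19 lists of pathway genes (345 genes and 607 probes detected at 25 °C), 17 held no chosen probe. The others held 1 each, Orc5 and bgm, or 0.329% of the probes. The share was 0.97% of detected probes for protein-coding genes and 1.17% of all detected. The probe of bgm had a spot at 25 °C that the scanner software marked as non-uniform. Without that array its smaller difference was -0.40. No chosen probe was found in the lists for heat shock proteins (32 probes), the JAK/STAT pathway (30) or the Imd and Toll pathways (50). The lists for the ecdysone response (38), glycolysis and hypoxia (50) and ribosome biogenesis (30) held none either. The lists did not hold every gene of their subject. The cytochrome P450 gene Cyp6a22, for example, was chosen with a smaller difference of 0.84 but was not in the list for that family. A count of 0 thus covers only the listed genes.

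The difference between 25 and 14 °C had a median of 0.84 over the 193 probes, against 0.21 over all detected probes. It was under 0.4 for 41 probes, between 0.4 and 0.8 for 54 and at least 0.8 for 98. The group thus held both plateaus over 14 and 25 °C and peaks at 25 °C alone. The mean at 14 °C lay above those at both 11 and 30 °C for 122 probes, by at least 0.8 for 30 of them. It lay between them for 40 with 11 °C lowest and 24 with 30 °C lowest, and below both for 7. The rule required high arrays at 25 °C and low ones at 11 and 30 °C, which favours 14 °C in between. How many of all detected probes fell into each of these classes was not counted.

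**Figure D4:**
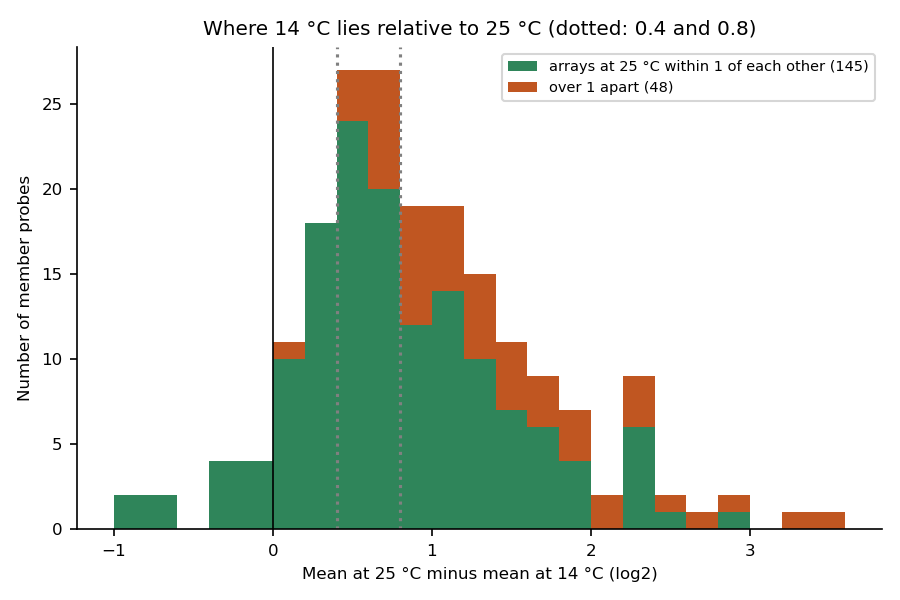
Stacked histogram of the mean log2 level at 25 °C minus that at 14 °C over the 193 probes, coloured by whether the 3 arrays at 25 °C lay within 1 of each other (145) or farther apart (48), with dotted lines at 0.4 and 0.8. The values run from -0.91 to 3.42 with a median of 0.84.

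Among the 12 probes with a higher mean at 14 than at 25 °C were those of a channel and a transcription factor. ClC-a, a chloride channel, read 7.25, 7.07 and 7.75 at 11 °C, 9.81, 9.26 and 9.43 at 14 °C, 9.10, 8.69 and 8.49 at 25 °C, with 5.54, 5.88 and 5.66 at 30 °C. All 4 groups were separate, with 30 °C lowest and 14 °C highest. It was higher at 14 than at 30 °C by 3.81 ± 0.22 (SE, limma adjusted p = 2.66e-07), higher at 14 than at 11 °C by 2.14 ± 0.22 (adjusted p = 0.00059) and higher at 11 than at 30 °C by 1.66 ± 0.22 (adjusted p = 6.62e-05). Its second probe gave 3.65, 2.03 and 1.62.

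Mef2, a MADS box transcription factor known for muscle and fat body, was chosen through the probe for its transcript CG1429-RB. This probe read 6.46, 6.55 and 6.19 at 11 °C, 8.15, 8.16 and 8.13 at 14 °C, 7.32, 7.21 and 7.19 at 25 °C, with 4.89, 5.11 and 5.48 at 30 °C. The 4 groups were separate, in the order 30, 11, 25 and 14 °C. Its level was higher at 14 than at 30 °C by 2.99 ± 0.16 (SE, limma adjusted p = 1.32e-07) and at 11 than at 30 °C by 1.24 ± 0.16 (adjusted p = 4.62e-05). Other probes of Mef2 differed: the brightest, for CG1429-RE, was 1.36 above 30 °C but 0.08 above 11 °C, and a probe for CG1429-RD was lower at 25 °C than at either, by -0.72 and -1.31.

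Esyt2, an extended synaptotagmin that tethers the endoplasmic reticulum to the plasma membrane, read 5.86, 5.35 and 5.42 at 11 °C, 7.44, 7.35 and 7.13 at 14 °C, 6.99, 6.35 and 6.32 at 25 °C, with 5.11, 5.39 and 5.46 at 30 °C. CG46339 (array identifier CG5518-RB) read 8.88, 8.54 and 8.47 at 11 °C, 9.72, 10.02 and 9.90 at 14 °C, 9.81, 9.92 and 9.82 at 25 °C, with 6.91, 6.71 and 6.55 at 30 °C. In the latter 14 and 25 °C coincided and 30 °C was far below 11 °C, by a log2 difference of 1.91 ± 0.15 (SE, limma adjusted p = 1.2e-06). CG10581 behaved likewise, at 9.94, 10.31 and 10.74 at 11 °C, 11.14, 11.28 and 11.22 at 14 °C, 11.19, 11.43 and 11.27 at 25 °C, with 7.91, 7.65 and 8.06 at 30 °C, with a difference of 2.46 ± 0.19 between 11 and 30 °C (adjusted p = 1.16e-06). The tetraspanin gene Tsp42Ea read 10.36, 10.90 and 10.43 at 14 °C and 10.94, 10.40 and 10.22 at 25 °C, against 8.79 to 9.93 at 11 and 30 °C, and its other detected probe had differences of 1.64 and 0.79 to 30 and 11 °C.

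At the other end, 14 °C was as low as 11 °C. CG16736 read 2.68, 2.67 and 2.77 at 11 °C, 2.90, 2.79 and 3.09 at 14 °C, 7.29, 5.97 and 5.78 at 25 °C, with 5.11, 4.90 and 4.75 at 30 °C. No array at 11 or 14 °C was well above background, so its level at 25 °C was at least 6.06-fold and that at 30 °C at least 2.25-fold that at 11 °C (limma adjusted p = 0.000111 for 11 against 30 °C). Such bounds set the mean of the bright group against the dim group's mean of, on each array, the higher of the probe's own signal and the lowest signal of a spot well above background. A single high array in the bright group therefore raises the bound. AW944532 read 2.88, 2.95 and 2.29 at 11 °C, 3.55, 2.62 and 4.12 at 14 °C, 5.60, 6.0 and 5.83 at 25 °C, with 5.08, 4.74 and 4.85 at 30 °C, and was at least 2.20-fold higher at 30 than at 11 °C (adjusted p = 0.000149). A probe for the transcript CG12210-RB of the synaptobrevin gene Syb, for a protein of vesicle fusion, read 6.58, 6.27 and 6.66 at 11 °C, 6.47, 6.17 and 6.16 at 14 °C, 8.92, 8.49 and 8.21 at 25 °C, with 7.81, 7.48 and 7.45 at 30 °C. A far brighter probe, for CG12210-RA, had means of 15.41, 15.36, 15.46 and 14.89 at 11, 14, 25 and 30 °C and so was not low in the cool.

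Between the temperatures that the rule set on the same side, calls were counted beside those of all tested probes. All 193 probes entered the fit. At 11 against 30 °C, 6 were called higher (3.11%, background 12%) and 20 lower (10.4%, background 16.1%). The rule held both ends below 25 °C, so these shares are no independent evidence. The 6 were both probes of ClC-a and those of CG46339, CG13784, CG10581 and Mef2. The median log2 change was -0.06, against -0.13 over all probes. Without overlap, 23 had 11 °C above 30 °C (background 26.4%) and 47 had 30 °C above 11 °C (background 37.4%).

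At 14 against 11 °C, 26 were called higher (13.5%, background 1.23%) and 0 lower (background 0.885%, with 0 at an unadjusted limma p under 0.05). The median change was 0.52, against 0.01 over all probes. Arrays at 14 °C lay above those at 11 °C without overlap for 92 probes (background 18.7%) and the reverse held for 0 (background 15.9%). At 14 against 30 °C, 32 were called higher (16.6%, background 9.67%) and 6 lower (3.11%, background 11.5%), with a median of 0.44 against -0.10. Without overlap, 78 had 14 °C above 30 °C (background 26.1%) and 27 the reverse (background 39%). Both comparisons share arrays that the rule required to be low, which favours a higher level at 14 °C. Neither these counts nor the p of single probes above are therefore independent evidence. When only the arrays at 14 and 11 °C entered the limma fit, the count of 26 was 0, with 91 probes at an unadjusted p under 0.05. It was 12 without replicate 1 at 14 °C, 13 without replicate 2 or 3 at 14 °C, 17 without replicate 1 and 15 without replicate 2 at 11 °C.

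For 14 against 25 °C, which the rule favours in 1 direction, 38 were called lower (19.7%, background 5.1%) and 0 higher (background 5.01%). Arrays at 25 °C lay above those at 14 °C without overlap for 130 probes (background 40.7%) and below them for 8 (background 13.4%). All 3 arrays at 25 °C lay above all 9 others for 118 (background 6.43%), and for 57 the arrays at 14 and 25 °C together lay above all those at 11 and 30 °C (background 1.67%).

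A transcript known from the fat body was among the dim probes. Fbp1, a receptor for storage proteins in the larval fat body, read 3.47, 4.98 and 4.64 at 11 °C, 3.12, 4.22 and 4.11 at 14 °C, 8.61, 5.32 and 5.36 at 25 °C, with 1.93, 3.54 and 3.39 at 30 °C. It was well above background on no array at 30 °C, so the mean level at 25 °C was at least 8.07-fold that at 30 °C. Replicate 1 at 25 °C alone was far above the rest and raised this bound above what replicates 2 and 3 would give. Its 2 other probes were not detected at 25 °C, with means there of 3.46 and 1.79. Of the 6 fat body markers, Fbp1 was the only one detected on all arrays at 25 °C.

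Other dim probes had arrays far from their replicates. CG33322 read 6.61, 5.62 and 6.06 at 25 °C, with 1.59, 3.44 and 2.23 at 30 °C, at least 6.56-fold lower, while at 11 °C it read 1.21, 4.78 and 4.95, with replicate 1 far below the others. CG18666 read 7.39, 4.15 and 4.63 at 25 °C against 0.96, 2.29 and 3.36 at 11 °C, a fold of at least 3.12. TC210454 read 7.63, 4.51 and 4.83 at 25 °C against 1.25, 3.66 and 2.48 at 11 °C, a fold of at least 3.75. For CG18666 and TC210454 the bound uses the mean at 25 °C and rests in large part on replicate 1. It exceeds what replicates 2 and 3 alone would give.

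In CO180084 the arrays were closer, at 5.83, 5.30 and 4.92 at 25 °C, with 2.98, 3.27 and 2.33 at 30 °C, a fold of at least 4.01. At 14 °C it read 4.95, 4.98 and 4.72, and at 11 °C 3.88, 2.22 and 2.17. PXo, a phosphate transporter, was above background on no array at 11 or 30 °C and read 4.63, 4.90 and 4.23 at 14 °C and 5.26, 4.40 and 4.39 at 25 °C, at least 1.91-fold over 11 °C and 2.53-fold over 30 °C.

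Vajk2 read 3.45, 4.79 and 5.02 at 11 °C, 3.67, 4.74 and 4.50 at 14 °C, 6.21, 5.53 and 5.79 at 25 °C, with 4.0, 4.52 and 4.18 at 30 °C. TC219916 read 4.67, 6.04 and 6.04 at 11 °C, 4.59, 5.84 and 5.49 at 14 °C, 7.24, 6.94 and 7.19 at 25 °C, with 4.59, 5.47 and 5.17 at 30 °C. In both, replicate 1 was the lowest array at 11, 14 and 30 °C and the highest at 25 °C. TC219873 read 4.28, 4.99 and 4.83 at 11 °C, 5.80, 5.96 and 5.77 at 14 °C, 6.60, 5.93 and 5.73 at 25 °C, with 4.69, 4.54 and 4.47 at 30 °C, with 14 and 25 °C overlapping.

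The brightest chosen probes carried the same mark of replicate 1. TC216804 read 14.95, 16.78 and 16.76 at 11 °C, 15.16, 16.49 and 16.61 at 14 °C, 18.45, 17.15 and 17.22 at 25 °C, with 13.76, 15.13 and 15.29 at 30 °C. TC215624 (18.24, 16.88 and 16.77 at 25 °C) and TC218264 (18.34, 17.69 and 17.44 at 25 °C) did likewise. For TC216804, the arrays of replicates 2 and 3 were 0.42 above 11 °C and 1.98 above 30 °C, while those of replicate 1 were 3.50 and 4.69 above, so its differences were larger in replicate 1 than in the others.

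The 3 arrays at 25 °C lay within 1 of each other for 145 probes. For 142 of these (97.9%) all 3 exceeded all arrays at 11 and 30 °C, which follows from the rule. Among all probes detected at 25 °C, whatever their spread, the share was 8.49%. For the other 48 chosen probes the arrays at 25 °C lay farther apart. Replicate 1 was the single high array in 18, exceeding the next by 1.11 to 4.92, and 7 of these still met the limit of 0.8 without it. Replicate 1 was the single low array in 16, among them the exonuclease gene Dis3l2, with 7.74, 10.68 and 10.46 at 25 °C. In these 16, replicates 2 and 3 exceeded replicate 1 by a median of 2.30 at 25 °C, and by 1.47, 1.47 and 1.27 at 11, 14 and 30 °C. Replicate 1 and the slide that held it cannot be told apart.

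In 7 probes the scanner software had marked a spot at 25 °C as non-uniform, and the values of the fit above leave that array out. A probe for bgm, an acyl-CoA synthetase for very long fatty acids, read 6.31, 5.78 and 11.40 at 25 °C, where another probe of the gene read 7.18, 6.65 and 6.77. The probe for Axn, a scaffold protein of Wnt signalling, read 10.23, 13.19 and 9.91, and NM_001015341 read 6.28, 5.93 and 14.40. AT24411 read 7.02, 7.15 and 11.56 at 25 °C, LD15354 6.66, 7.16 and 11.20, TC218503 6.52, 6.40 and 8.59, and AI945374 7.05, 4.40 and 4.47. Without the marked array the smaller difference of the 7 ran from -1.38 to 0.60, so none of them met the rule. Of the remaining probes, TC209167 read 3.87, 4.11 and 5.89 at 25 °C, with 2.09, 2.80 and 5.26 at 30 °C.

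Within the slide that held replicate 1 of all temperatures, both differences were above 0 for 183 of 193 probes and at least 0.8 for 140. Taken from replicates 2 and 3, where 25 and 30 °C shared a slide and 11 °C lay on a different one, they were above 0 for 189 and at least 0.8 for 151. For 99 probes, all 4 differences reached 0.8. When each array at 25 °C was left out in turn, 117 probes met the rule every time, 149 without replicate 1, 170 without replicate 2 and 168 without replicate 3.

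**Figure D5:**
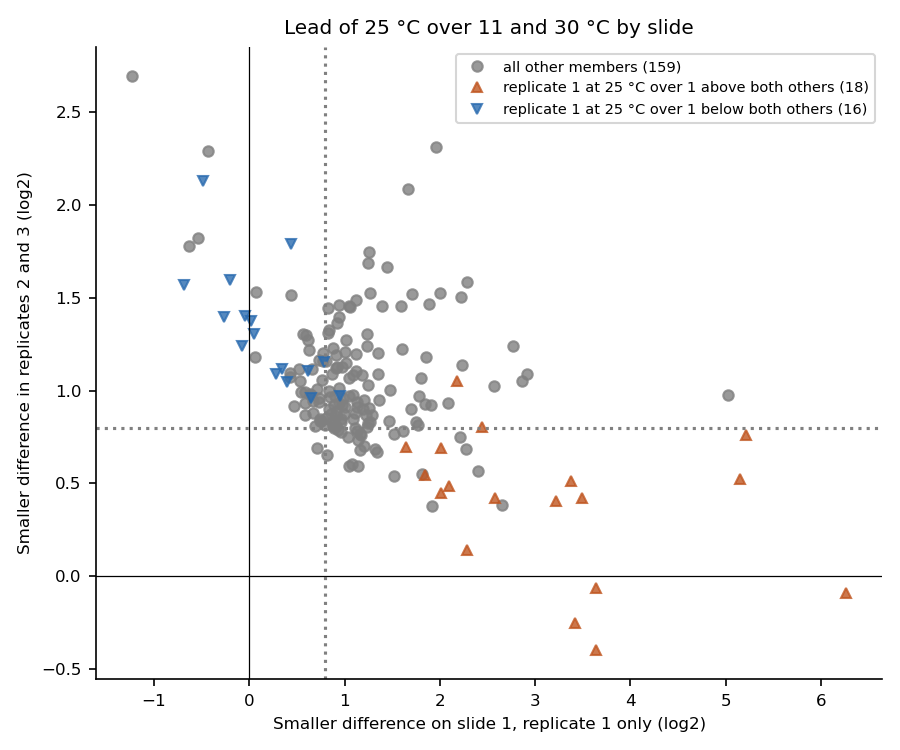
Each point is a probe, with the smaller of its log2 differences between 25 °C and 30 or 11 °C in replicate 1, which shared a slide, set against the same from replicates 2 and 3, and dotted lines at 0.8. Upward triangles mark the 18 probes in which replicate 1 at 25 °C was the single high array, and downward triangles the 16 in which it was the single low one.

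Several probes of a gene often disagreed. Of the 102 RefSeq genes, 56 had a single detected probe and 46 several. All detected probes were chosen for 11 of the 46, while 21 had some probe at or below 0 in its smaller difference. The 62 detected probes of these genes or identifiers that were not chosen had both differences above 0 in 31 cases (50%), against 36.7% of all other detected probes, and a median smaller difference of 0.01, against -0.12. Of the 62, 9 reached 0.4.

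The probes just inside the limit of 0.8 were BI631263, Coq4 and TC218503, with smaller differences of 0.80, 0.80 and 0.81. BI631263 read 5.13, 8.90 and 7.93 at 25 °C. Just outside it were CG8353, TC216718 and CG11883, each at 0.80 when rounded, so the limit separated probes with nearly equal values.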

How the data were processed

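Total RNA of 12 samples, 3 per temperature, was measured on Agilent single-colour arrays. Per the file headers, the scanner output deposited for each array gives linear spot intensity, with a fitted background subtracted and no normalization between arrays. A series table deposited beside it holds log2 values, equal on every array to the log2 scanner signal plus 1 constant, for 100% of probes within 0.01. Membership of the group and the printed levels come from this table.

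The chosen transcripts, the gene lists and the tests were selected with earlier results of these data known. For the fit, controls and outlier spots were removed, replicate spots averaged, and array medians set to that of the 25 °C arrays, as in the methods of the study. A probe entered if a share of 0.5 or more of its spots exceeded background clearly on 2 or more of the 3 arrays of some temperature, and if 10 values were present. limma 3.58.1 in R 4.3.3 gave a mean per temperature, with the spread shared by all 12 arrays, and a script checked it on simulated data. A set of 12 arrays limits the precision. Symbols come from the RefSeq table of the assembly Release 6 plus ISO1 MT, which matched 60.6% of the probes of the array. The array's build is not given in the sources used here, so no coordinates are printed.

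Named were the 12 probes with the largest smaller difference among those well above background on all arrays, the 5 largest of the rest, the 4 largest calls in each direction for 11 against 30 °C, the 3 highest and 3 lowest at 14 relative to 25 °C, members of the gene lists, the 3 probes on each side of the limit, and those with marked spots. Others were named after their values were seen. Alternatives were other scalings, quantile normalization, filters on dim probes, 50 units added to the signal, slide or replicate as a block, a fit on only the arrays compared, limma's treat, the mean over the probes of a gene, and leaving out each array.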

Additional observations from a re-analysis of the deposited data

How the results depend on the processing

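Of 181 alternative values of the counts, 152 stayed within 1.5 times the reported one. The number of chosen probes, 193 as reported, was 120 with scaling on the 75th percentile, 121 on probes detected on every array, 76 on spike-in controls, 64 with 50 units added to the signal (a setting added after the data were seen), 671 with no filter on dim probes and 109 with only signals over 100. Leaving out 1 array gave 176 to 337, the highest without replicate 1 at 25 °C, where 149 of the 193 were shared. For 11 against 30 °C, higher calls (6) were 10 with either scaling on bright probes, 3 with 50 units added and 2 with treat, and 6 to 9 without 1 array. Lower calls (20) were 11 and 6 with the latter settings and 17 to 23 without 1 array. For 14 against 11 °C, higher calls (26) were 13 with 50 units added, 14 without the filter, 0 with treat, 0 with only the 6 arrays compared, and 12 to 31 without 1 array. For 14 against 30 °C, higher calls (32) were 17 with 50 units added and 9 with treat, and 27 to 33 without 1 array. Lower calls (6) were 3 with the 75th percentile, 1 with 50 units added, 3 with signals over 100, 0 with treat, 3 among probes with even arrays at 25 °C, and 4 to 6 without 1 array. The cause of these changes was not tested.

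With the replicate number as a block, the chosen probes numbered 187 and the calls were 9 and 21, 29 and 0, and 32 and 6. Same-numbered arrays deviated together, with r from 0.076 to 0.568 over 18 pairs of groups and over 0.1 in 15 of them. The main fit held no term for the replicate number, so its SE and adjusted p do not take this shared deviation into account. With the slide as a block the counts were 218 (169 shared), 8 and 27, 33 and 0, and 28 and 6. Shared with the reported calls were 6 and 18 for 11 against 30 °C, 26 and 0 for 14 against 11 °C, and 24 and 3 for 14 against 30 °C. Normexp background correction was not run, since its model could not be fitted on 7 of 12 arrays.

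The smaller difference of 28 of 35 named probes kept its sign throughout. Of the exceptions, NM_001015341 stood at -1.53 with scaling on the 75th percentile, -1.52 on probes well above background, -1.67 on spike-ins, -1.39 with quantile normalization, -0.93 with 50 units added, -1.38 from the scanner files, -1.41 with the slide as a block and -1.37 with the replicate block. In the same order AT24411 stood at -0.61, -0.60, -0.75, -0.48, -0.34, -0.46, -0.45 and -0.54, LD15354 at -0.61, -0.60, -0.75, -0.48, -0.33, -0.46, -0.41 and -0.30, and bgm at -0.72, -0.71, -0.77, -0.45, -0.24, -0.41, -0.62 and -0.45. For these 4 probes the value from the scanner files also held, to 0.01, for signals over 100 and without replicate 3 at 25 °C, where bgm stood at -0.40, and for the gene's mean, where bgm stood at -0.24. Axn stood at -0.13, -0.13 and -0.23 with the 3 scalings, -0.13 with quantile normalization, -0.032 with the slide and -0.024 with the replicate block. TC218503 stood at -0.055, -0.052 and -0.20 with the 3 scalings. Without other single arrays the values reached 2.86 for NM_001015341, 1.81 for AT24411 and LD15354 and 2.41 for bgm. These 6 had marked spots, which the values from the scanner files leave out. Mef2 stood at -0.89 as the mean over its probes. A positive value does not mean that the limit of 0.8 was met. With scaling on spike-ins, several named probes were positive but under it. Among these were Mef2 at 0.53, Coq4 at 0.55, Orc5 at 0.64, CG10581 at 0.66, AW944532 at 0.68 and Esyt2 at 0.70. Others still met it, such as snoRNA:Psi28S-291 at 1.70 and CG8349 at 1.34.

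Of the 193 probes, 56 had a mean under 6 at 25 °C. A surrogate replaces signals near background, so that their differences stretch or shrink.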
